A study of Mus musculus with 7 samples.

Results

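The Spata genes of mouse share the name spermatogenesis-associated and were taken here by symbol: every probe set annotated with exactly 1 gene symbol that starts with Spata followed by a digit. The rule found 29 probe sets of 28 genes among 23493 probe sets with 1 symbol, and 2 of them read Spata4. RNA of mouse sperm was measured on 7 Affymetrix arrays. The C57BL/6 control was 1 array of RNA pooled from 5 males. TG3 were males that carried a KDM1A transgene, made by microinjection into C57BL/6 zygotes, traced to 2 female founders and passed for 3 generations through heterozygous males bred to C57BL/6 females. nonTG3 were their littermates without the transgene, so both groups share the line's founders and breeding. TG3 and nonTG3 had 3 arrays each, every one a pool of 4 males. The labels name no promoter for the transgene. The design asks how sperm RNA differs between wild type, carriers and littermates, and "the line" below means the mean of TG3 and nonTG3.

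The name covers mostly unrelated proteins rather than a family by descent. As background, developing sperm shut down transcription while the nucleus is compacted, and mature sperm keep a store of RNAs made earlier in spermatids. Several Spata proteins build the mitochondrial sheath, the neck or the acrosome of the spermatid, Spata22 serves meiotic recombination, and others such as Spata2l, Spata5 and Spata7 work in many tissues.

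The start sites of 3 genes that were lower in the line, Spata4, Spata33 and Spata45, are shown because each holds the letters GTTGCC, the core bound by RFX factors, which act in ciliated and germ cells. Spata19, whose RNA fell most, and Spata7, which did not pass the test, are shown beside them. Each run covers 100 bases before to 30 bases from the annotated start, 5′ to 3′ on the + strand of GRCm38.p6 in RefSeq. Capitals mark GTTGCC on either strand (read as GGCAAC on the other) and the cAMP response element TGACGTCA. The windows are chr8:54600681-54600810 for Spata4, chr8:123212758-123212887 for Spata33, chr1:191036719-191036848 for Spata45, chr9:27396707-27396836 for Spata19 and chr12:98628042-98628171 for Spata7.
Spata4: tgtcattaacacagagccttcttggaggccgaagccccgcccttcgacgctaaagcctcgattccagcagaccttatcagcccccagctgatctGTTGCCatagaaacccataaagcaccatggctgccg
Spata33: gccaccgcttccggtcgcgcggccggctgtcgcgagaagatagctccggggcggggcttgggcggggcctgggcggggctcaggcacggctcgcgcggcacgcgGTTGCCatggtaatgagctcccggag
Spata45: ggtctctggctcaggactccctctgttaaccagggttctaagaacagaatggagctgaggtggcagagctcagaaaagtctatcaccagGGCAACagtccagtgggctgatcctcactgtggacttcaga
Spata19: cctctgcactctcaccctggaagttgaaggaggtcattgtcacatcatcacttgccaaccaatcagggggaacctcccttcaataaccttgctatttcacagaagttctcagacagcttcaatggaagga
Spata7: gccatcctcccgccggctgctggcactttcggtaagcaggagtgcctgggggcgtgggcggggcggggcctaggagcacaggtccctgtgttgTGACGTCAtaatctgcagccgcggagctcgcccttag
In Spata4 the letters begin 6 bases before the annotated start, in Spata45 11 bases before it on the other strand, and in Spata33 at base 5 of the transcript. Spata45 and Spata19 each have 2 annotated starts, and the windows of their starts not shown hold none of these letters.

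Start-site windows of 300 bases, 250 before to 50 after, were taken from RefSeq for 26 of the 28 genes. Spata24 was left out because chromosome 18 was left out, and Spata2l had no window of that length. The chromosome was left out for the Spata genes alone. A gene was counted as holding a motif when any of its windows did. GTTGCC stood on either strand in 3 of 8 genes lower in the line, and in 1 of 18 others, Spata31d1a, where it lay 245 bases before the start. It stood in 12.5% of all 32851 such windows and in 14.1% of genes. TGACG, the core of the cAMP response element, stood on either strand in 2 of 8 and in 6 of 18, against 23% of genes. The whole element TGACGTCA, which contains TGACG, was found in Spata7 alone among these genes, against 2.03% of genes. TATAAA, searched on the gene's own strand, was in 0 of 8 and in 0 of 18, against 9.77% of genes. A match describes the letters of a window and is no evidence of binding.

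The deposited readings are RMA intensities on a log2 scale, where a difference of 1 is a doubling. Array medians lay between 3.52 and 3.61. Whether readings below 3.52 lie above background was not measured, so no fold is given for a member whose dimmer group averaged below it. Spata31 and Spata13 read below 3.52 on all 7 arrays, and Spata22 did on the line's arrays, while the other 26 probe sets lay above it on every array. Levels of different probe sets are not compared, because probes differ in brightness. Kdm1a read 5.64 on C57BL/6, and TG3 and nonTG3 each averaged 5.20 ± 0.12 (SD, n = 3). The labels do not say whether its probe set reads the transgene. All 7 arrays carried strong signal of the sperm transcripts Prm1 and Tnp1: 9 measured markers of sperm and spermatids averaged 10.26 on C57BL/6 and 8.98 to 9.27 on the line's arrays. The markers did not fall alike. Of the 9, 4 were called lower in the line (limma adjusted p under 0.05): Tnp1, Ldhc, Prm1 and Tekt4. The others were not called, and Smcp and Odf1 differed by only -0.085 and -0.039. The C57BL/6 array has no replicate, and p-values measure the spread between pools, which the labels do not say came from separate males.

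Spata RNAs were lower in sperm of the line than on the C57BL/6 array at 9 of 29 probe sets, which read 8 genes: Spata19, Spata4, Spata45, Spata9, Spata46, Spata33, Spata48 and Spata1. Over all 23493 probe sets, 2.85% were called lower and 0.17% higher (limma, adjusted p under 0.05). No Spata probe set was called higher, and 0 had an unadjusted limma p under 0.05 in that direction, against 4.29% of all. The median difference of the 29 probe sets was -0.62 log2 units, against 0.04 over all probe sets. All 6 arrays of the line lay below C57BL/6 at 18 of 29 Spata probe sets, against 14.3% of all, and above it at 1, against 18.2%. Leaving out TG3 replicate 2 or nonTG3 replicate 2 turned the count of 9 into 5. It became 0 when both arrays low in mitochondrial RNA, TG3 replicate 1 and nonTG3 replicate 3, were dropped. Calls over all probe sets, 710 in either direction, fell too in these fits, to 396, 350 and 0 in that order. The loss is therefore not particular to Spata probe sets. The median difference was -0.67 without that last pair. In bulk samples, fewer cells of a type and less RNA per cell cannot be told apart.

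**Figure D1:**
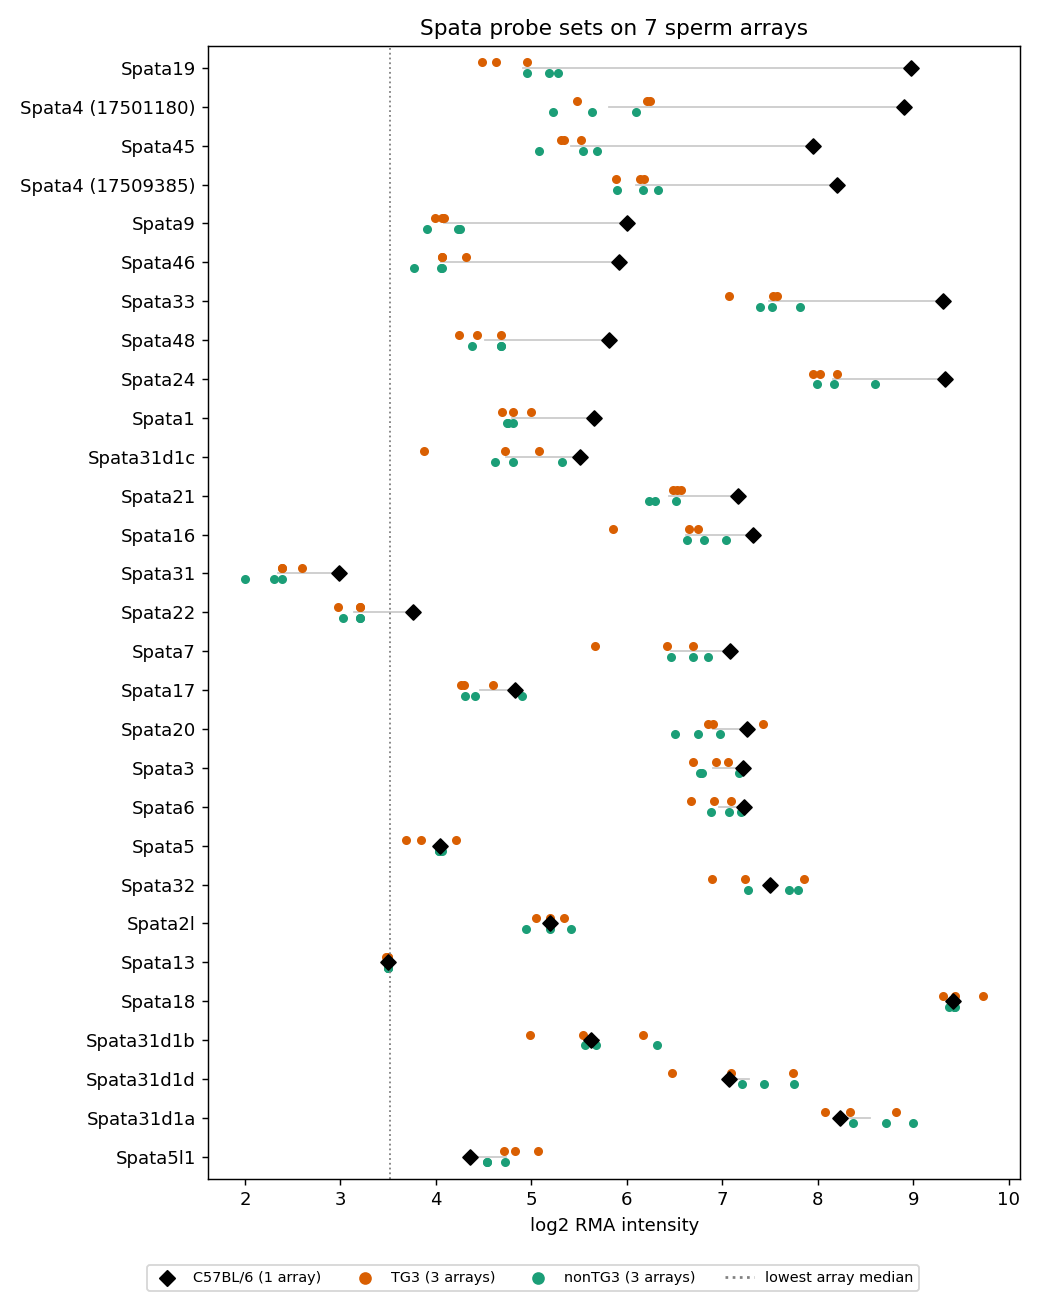
Log2 RMA intensity (horizontal) of the 29 Spata probe sets (rows, ordered by the difference between the line and C57BL/6) on each array: black diamonds are the C57BL/6 array, orange points TG3 and green points nonTG3, and the grey line joins C57BL/6 to the line's mean. The dotted line is the lowest array median, 3.52; in the top 8 rows the 6 points of the line lie well to the left of the diamond.

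Among the genes grouped under sperm mitochondria and tail, 4 of 9 probe sets were called lower, against 2.85% of all probe sets. The count was 5 of 10 with Spata48, a tail protein that the grouping left without a role. Spata4 entered these counts through both of its probe sets. Spata19, a protein of sperm mitochondria needed for motility, had the largest difference. It read 8.97 on C57BL/6, 4.48, 4.95 and 4.63 in TG3 (replicates 1, 2 and 3 in this order throughout), and 5.18, 4.96 and 5.28 in nonTG3. Every array of the line was at least 3 log2 units under C57BL/6. Spata19 fell 16.68-fold, a difference of -4.06 ± 0.21 (SE; limma adjusted p = 0.0021). Its call held in each of the 6 fits that left out 1 array.

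Spata4, a testis protein with a calponin homology domain, was read by probe sets 17509385 and 17501180. The first read 8.20 on C57BL/6, 6.14, 6.18 and 5.88 on TG3 and 6.17, 6.33 and 5.90 on nonTG3. The second read 8.90 on C57BL/6, 5.48, 6.24 and 6.21 on TG3 and 6.09, 5.22 and 5.64 on nonTG3. Both were lower on all 6 arrays, but not by the same size: the differences were -2.10 ± 0.20 (SE; limma adjusted p = 0.00714) and -3.09 ± 0.40 (SE; limma adjusted p = 0.0199), a gap of 0.98 log2 units that was not tested. The second lost its call without replicate 2 or 3 of TG3 or of nonTG3, at limma adjusted p up to 0.0736.

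Spata33 ties the phosphatase calcineurin to sperm mitochondria and keeps the midpiece flexible. It read 9.31 on C57BL/6, 7.53, 7.57 and 7.07 on TG3 and 7.40, 7.52 and 7.82 on nonTG3. The groups of the line overlapped each other and both lay below C57BL/6, by 3.55-fold (difference -1.83 ± 0.24, SE; limma adjusted p = 0.0216). Its call was lost without replicate 1 or 2 of TG3 or of nonTG3, at adjusted p up to 0.0818 without nonTG3 replicate 2.

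Other genes of mitochondria and tail did not pass the test. Spata18, which acts in mitochondrial quality control, read 9.42 on C57BL/6 and 9.45 ± 0.15 (SD, n = 6) in the line, with a 95% interval of the difference from -0.38 to 0.45. For Spata6, which builds the connecting piece of the sperm neck, the readings were 7.23 and 6.97 ± 0.19 (SD, n = 6), and the interval ran from -0.73 to 0.21. The interval of Spata3 ran from -0.83 to 0.21, that of Spata17, which has calmodulin-binding IQ motifs, from -0.99 to 0.26, and that of the thioredoxin-like Spata20 from -1.03 to 0.31. The upper bound for Spata19, -3.55, lay under the lower bound of each of these 5 intervals. This is no test between genes: Spata19 was set here for its largest difference and these 5 for missing the threshold. All the intervals also share the C57BL/6 array.

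**Figure D2:**
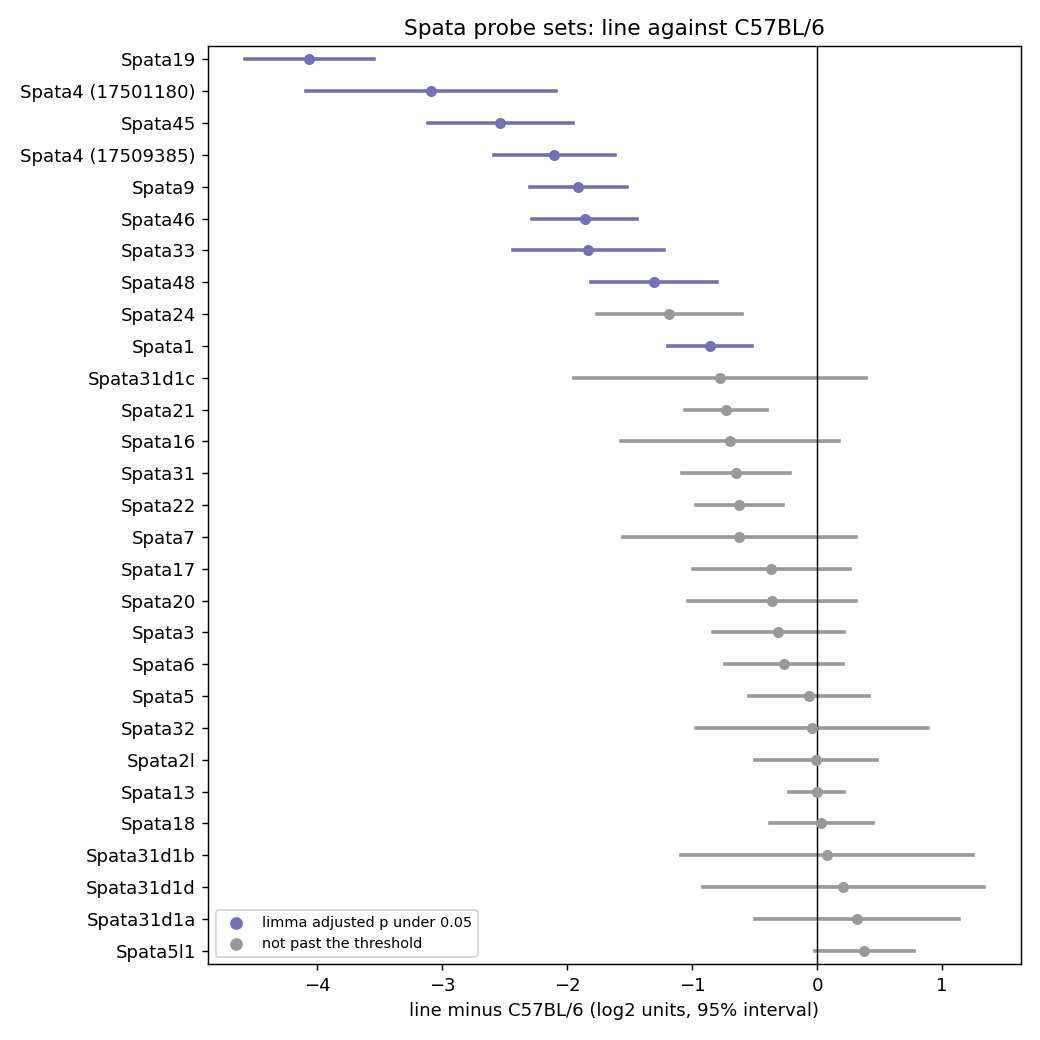
Difference between the line and C57BL/6 in log2 units (horizontal) with its 95% interval from limma for each Spata probe set (rows); purple marks an adjusted p under 0.05 and grey the rest. The 9 called probe sets range from -4.06 to -0.85, and the other 20 range from -1.18 to 0.38.

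Among genes of the acrosome and sperm head, 2 of 8 probe sets were called lower, against 2.85% of all probe sets. Spata46, a protein of the sperm nuclear envelope that takes part in head shaping and gamete fusion, read 5.92 on C57BL/6. It read 4.07, 4.32 and 4.07 on TG3 and 4.05, 3.77 and 4.07 on nonTG3, and 3 of these 6 values were exactly equal. It fell 3.63-fold (difference -1.86 ± 0.17, SE; limma adjusted p = 0.00654). Spata1 fell less: it read 5.66 on C57BL/6, 5.00, 4.81 and 4.69 on TG3 and 4.81, 4.75 and 4.75 on nonTG3. All 6 arrays lay below C57BL/6, by 1.81-fold (limma adjusted p = 0.037), and the call was lost in 5 of the 6 fits without 1 array, all but that without TG3 replicate 1, at adjusted p up to 0.109 without nonTG3 replicate 2.

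Spata16, a protein of the Golgi and forming acrosome whose loss gives round-headed sperm, did not pass the test. It read 7.32 on C57BL/6, 6.75, 6.65 and 5.86 on TG3 and 6.63, 6.80 and 7.03 on nonTG3. All 6 values were below C57BL/6, but TG3 replicate 3 stood apart from the rest, and the interval of the difference ran from -1.57 to 0.17 (limma adjusted p = 0.562).

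The Spata31 genes, which all lie on chromosome 13 in RefSeq, gave no call. Such gene copies can share probes, so their readings are not independent. Spata31d1a read 8.23 on C57BL/6, 8.82, 8.34 and 8.07 on TG3 and 8.36, 8.71 and 9.0 on nonTG3. Its values lay above C57BL/6 on 5 of the 6 arrays, with an interval of the difference from -0.50 to 1.14 log2 units. Spata31d1d and Spata31d1b had differences of 0.21 and 0.08, and the signs of these 2 changed without TG3 replicate 1 and nonTG3 replicate 3 together. Spata31d1c differed by -0.77 with an interval from -1.94 to 0.39, so its direction was not determined.

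Spata22, which works with Meiob in meiotic recombination, is the only member of the meiotic role. It read 3.76 on C57BL/6, 3.21, 3.21 and 2.98 on TG3 and 3.03, 3.21 and 3.21 on nonTG3, with 4 exactly equal values. All 6 were lower than C57BL/6 and below 3.52, and the limma adjusted p was 0.108.

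Of genes that many cell types express, 0 of 5 probe sets were called, against 2.85% of all probe sets lower and 0.17% higher. Their median difference was -0.01. Spata5l1, a relative of the ATPase Spata5 that acts in ribosome assembly, was the single member higher than C57BL/6 on all 6 arrays. It read 4.35 on C57BL/6, 4.83, 4.72 and 5.07 on TG3 and 4.72, 4.54 and 4.53 on nonTG3 (difference 0.38 ± 0.16, SE; limma adjusted p = 0.446). Spata5 itself read 4.04 and 3.98 ± 0.18 (SD, n = 6), with an interval of the difference from -0.55 to 0.41. Spata2l, a relative of the adaptor Spata2 that brings the deubiquitinase CYLD to TNF receptor complexes, read 5.20 and 5.19 ± 0.17 (SD, n = 6), with an interval from -0.50 to 0.48. Spata7, a protein of the photoreceptor cilium, had a difference of -0.62 and an interval from -1.55 to 0.31. Spata13 read 3.50 on C57BL/6 and the same value on 5 of the line's 6 arrays, so it carries little information.

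Of the 6 members to which the grouping gave no role, 3 were called lower, or 2 of 5 without Spata48. Over all probe sets 2.85% were. Spata45 read 7.95 on C57BL/6, 5.34, 5.52 and 5.31 on TG3 and 5.69, 5.08 and 5.54 on nonTG3. It fell 5.79-fold, by more than the range of the line's arrays (difference -2.53 ± 0.23, SE; limma adjusted p = 0.00705). Spata9 read 6.00 on C57BL/6, 4.08, 4.06 and 3.99 on TG3 and 4.23, 3.90 and 4.25 on nonTG3, a fall of 3.76-fold (limma adjusted p = 0.00532).

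Spata48, a protein inside the microtubules of the sperm tail, read 5.82 on C57BL/6, 4.68, 4.43 and 4.24 on TG3 and 4.37, 4.68 and 4.68 on nonTG3. It fell 2.46-fold (limma adjusted p = 0.0351), with 3 exactly equal values, and the call was likewise lost in all but the fit without TG3 replicate 1, at adjusted p up to 0.102 without TG3 replicate 2. The remaining 3 did not pass: Spata24, Spata21 and Spata32. Spata24 read 9.34 on C57BL/6, 8.20, 8.03 and 7.95 on TG3 and 7.99, 8.17 and 8.60 on nonTG3 (difference -1.18, limma adjusted p = 0.0721), and was called without nonTG3 replicate 3 (adjusted p = 0.0396). Spata21, which has an EF-hand for calcium, read 7.16 on C57BL/6, 6.56, 6.53 and 6.49 on TG3 and 6.29, 6.23 and 6.51 on nonTG3 (difference -0.73, limma adjusted p = 0.0576), and was also called without nonTG3 replicate 3 (adjusted p = 0.0426). Spata32 differed by -0.04, with an interval from -0.97 to 0.89.

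Carriers and littermates were each set against the same C57BL/6 array, so these comparisons share their control. TG3 gave 8 of 29 calls, all lower, against 2.41% of all probe sets lower and 0.119% higher, with a median of -0.63. nonTG3 also gave 8 of 29, all lower, against 2.43% lower and 0.0936% higher, with a median of -0.52. Spata1 missed the threshold in TG3 (limma adjusted p = 0.0562) and Spata48 in nonTG3 (limma adjusted p = 0.0577), and the other 7 of the 9 probe sets were called in both. Each count became 5 without TG3 replicate 2, nonTG3 replicate 1 or nonTG3 replicate 2, and 0 when only the 2 groups compared were fitted. At an unadjusted limma p under 0.05, 1 Spata probe set was higher in TG3, against 4.33% of all, and 0 in nonTG3, against 3.95%.

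TG3 against nonTG3 asks whether the transgene itself goes with a difference among littermates. No Spata probe set was called, in either direction, as 0% of all probe sets were, and limma adjusted p ran from 0.923 to 0.999. The median difference of the 29 probe sets was -0.08, with 20 lower and 9 higher in TG3. At an unadjusted p under 0.05, limma had 1 of 29 lower in TG3, against 0.898% of all, and 0 higher, against 1.48%. That member was Spata19, whose mean was 4.69 ± 0.24 (SD, n = 3) for TG3 against 5.14 ± 0.16 (SD, n = 3) for nonTG3. It was also the single Spata probe set whose groups did not overlap, against 1.65% of all probe sets with TG3 lower and 2.47% with TG3 higher. The difference was -0.45 ± 0.16 (SE) with an interval from -0.84 to -0.06 (limma unadjusted p = 0.0295, adjusted p = 0.923).

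The next smallest unadjusted p belonged to Spata5l1, at 0.27 log2 units higher in TG3 with an interval from -0.03 to 0.57 (limma adjusted p = 0.923). Spata21 followed at 0.18 higher with an interval from -0.07 to 0.43 (limma adjusted p = 0.923). Intervals of the 29 probe sets ran between -1.24 and 1.08 log2 units, the widest being those of Spata31d1c, Spata31d1d, Spata31d1b and Spata4.

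Within the line, many members varied together across arrays. Of the 29 probe sets, 17 had their lowest value in the line on TG3 replicate 3, against 19.2% of all probe sets, and 14 had their highest on nonTG3 replicate 3, against 20% of all. Both held for 11: Spata3, Spata6, Spata7, Spata16, Spata17, Spata24, Spata33, Spata31d1a, Spata31d1b, Spata31d1c and Spata31d1d, against 8.33% of all. The Spata31d1 copies among them can share probes, so they are not independent members of this count. Spata7 read 6.69, 6.43 and 5.66 on TG3 and 6.47, 6.69 and 6.85 on nonTG3. Spata31d1c read 5.08, 4.73 and 3.88 on TG3 and 4.62, 4.81 and 5.32 on nonTG3, and Spata31d1b read 6.17, 5.54 and 4.99 and 5.56, 5.68 and 6.32.

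The 10 mitochondrially encoded genes measured had mean levels of 8.80, 11.44 and 11.51 across TG3 and of 11.55, 9.98 and 8.91 across nonTG3, by replicate. The highest readings of Spata31d1a, on nonTG3 replicate 3 and TG3 replicate 1, were thus on the arrays with least mitochondrial RNA. The mean of 20 fibroblast, muscle and vessel markers was 5.64 on TG3 replicate 1, 5.44 on nonTG3 replicate 3 and 4.55 to 4.87 on the other 4 of the line. The mean of 12 spermatogonial markers was lowest in the line on TG3 replicate 3, at 3.90, and highest on nonTG3 replicate 3, at 4.25. The markers did not move alike. On these arrays in that order, the largest gaps were those of Ddx4 (5.792 and 7.505) and Uchl1 (5.428 and 6.93). Sall4 (4.205 and 3.94) and Etv5 (4.186 and 3.582) went the other way. TG3 replicate 3 and nonTG3 replicate 3 were the arrays of the lowest and highest values of many Spata probe sets. The mean of the sperm and spermatid markers was instead lowest on nonTG3 replicate 2, at 8.98, and highest on TG3 replicate 2, at 9.27. The part of any of these in the Spata readings was not tested.

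**Figure D3:**
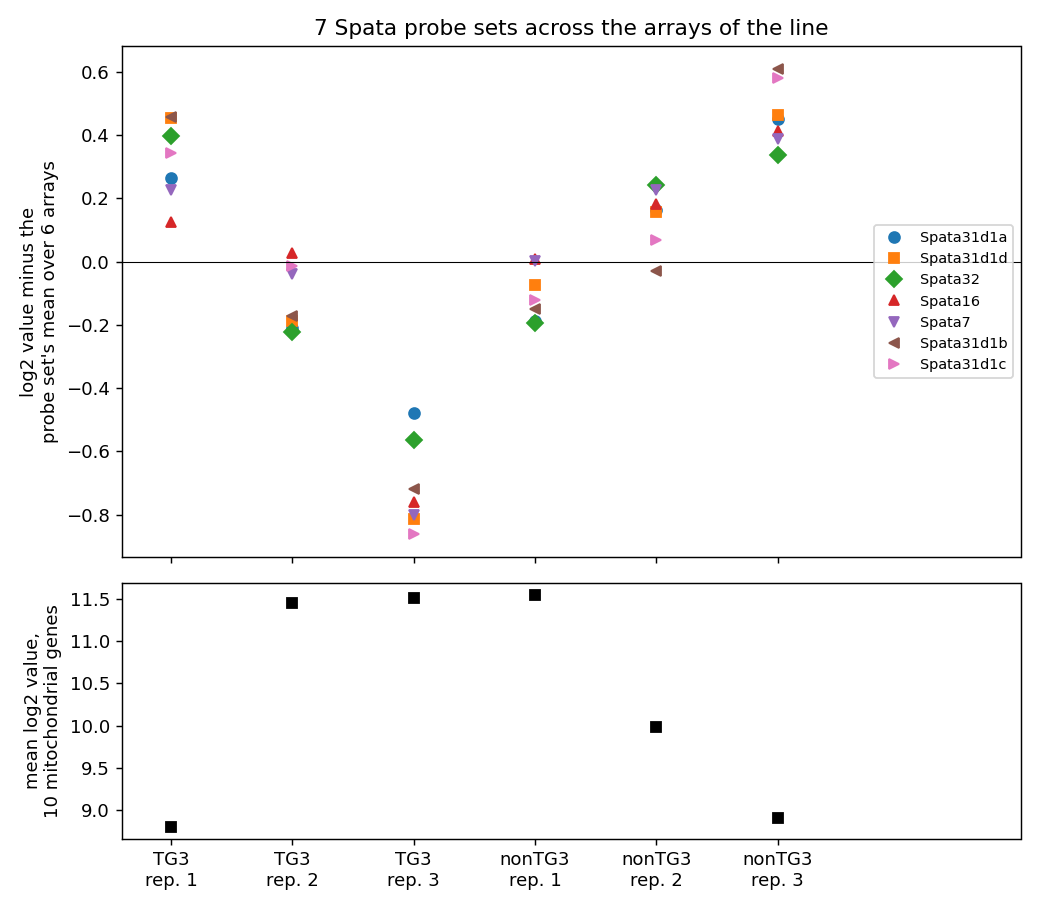
Upper panel: log2 value minus the probe set's own mean over the line's 6 arrays (vertical) for 7 Spata probe sets, chosen after their values were seen, on each array (horizontal). Lower panel: mean log2 value of 10 mitochondrially encoded genes. All 7 probe sets are lowest on TG3 replicate 3, and all but Spata32 are highest on nonTG3 replicate 3.

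Genes known to act beside the Spata proteins were counted in the line against C57BL/6 by the same test. Over all probe sets, 2.85% were called lower and 0.17% higher. Of 35 midpiece, neck and tail genes 9 were lower and 0 higher (median -0.71), with the smallest p for Meig1, a spermatid protein needed for tail assembly (8.33-fold), Vdac3, a mitochondrial channel (6.84-fold), and Ldhc, the sperm lactate dehydrogenase (5.76-fold). Of 34 acrosome and egg-binding genes 15 were lower (median -1.16), led by Spaca1 (7.23-fold), Acrv1 (6.63-fold) and Hyal5, a hyaluronidase that read 5.17 on C57BL/6 and 2.28 in the line. Of 20 sperm chromatin genes 11 were lower (median -1.50), led by the transition protein Tnp1 (7.38-fold), Phf7, a reader of histone marks (10.26-fold), and the protamine Prm1 (2.72-fold).

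Of 35 genes of meiotic recombination and synapsis 5 were lower (median -0.11), led by Sycp2, Smc1b and Syce3, while 10 of the 35 lay below 3.52 on all arrays. Of 12 partners of Spata2 in TNF receptor signalling 0 were called (median 0.04), against 2.85% of all probe sets lower and 0.17% higher. Traf2, Birc2 and Tnfrsf1a, with the smallest p, differed by 0.12, -0.27 and -0.13 (limma adjusted p of 0.846 to 0.905). The Spata share of 31% lay between those of the midpiece and acrosome lists, and these shares were not compared by a test.

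Some markers of testis cells outside the germ line were also lower in the line, where 2.85% of all probe sets were called lower. Of 17 Sertoli markers 4 were called lower: Tsx, Cst9, Cst12 and Defb36, which read 6.97, 7.66, 5.43 and 6.57 on C57BL/6 and averaged 3.26, 2.94, 2.0 and 4.34 in the line. The other 13 were not called, among them Sox9 at 4.25 and 4.45 and Wt1 at 3.81 and 3.96, and the median difference of the list was -0.13. Its summed log2 level was 80 on C57BL/6 against 60.85 to 66.03 on the line's arrays, a gap that lies mostly in the 4 called genes. Of 8 Leydig markers 4 were called lower (median -0.52): Cyp17a1, Hsd3b6, Hsd17b3 and Star, enzymes and a carrier of steroid synthesis. The other 4, Cyp2a4, Nr5a1, Cyp11a1 and Hsd3b1, lay below 3.52 on all arrays, so the gap between the sums of 28.73 and of 19.65 to 21.03 lies in the called genes. Of the Sertoli markers 5 lay below 3.52 on all arrays, and all called markers of both lists but Defb36 averaged below it in the line. Of 12 spermatogonial, 15 leukocyte and 20 fibroblast, muscle and vessel markers 0 were called, against 2.85% of all probe sets lower and 0.17% higher. Below 3.52 on all arrays lay 3 spermatogonial markers, 5 of leukocytes and 1 of fibroblasts, muscle and vessels. Of 16 markers of epididymal epithelium 1 was higher, Lcn8, at 2.45 and 3.16. It was among 5 of that list that lay below 3.52 on all arrays. Whether testis cells on the C57BL/6 array take part in the Spata differences was not tested.

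**Figure D4:**
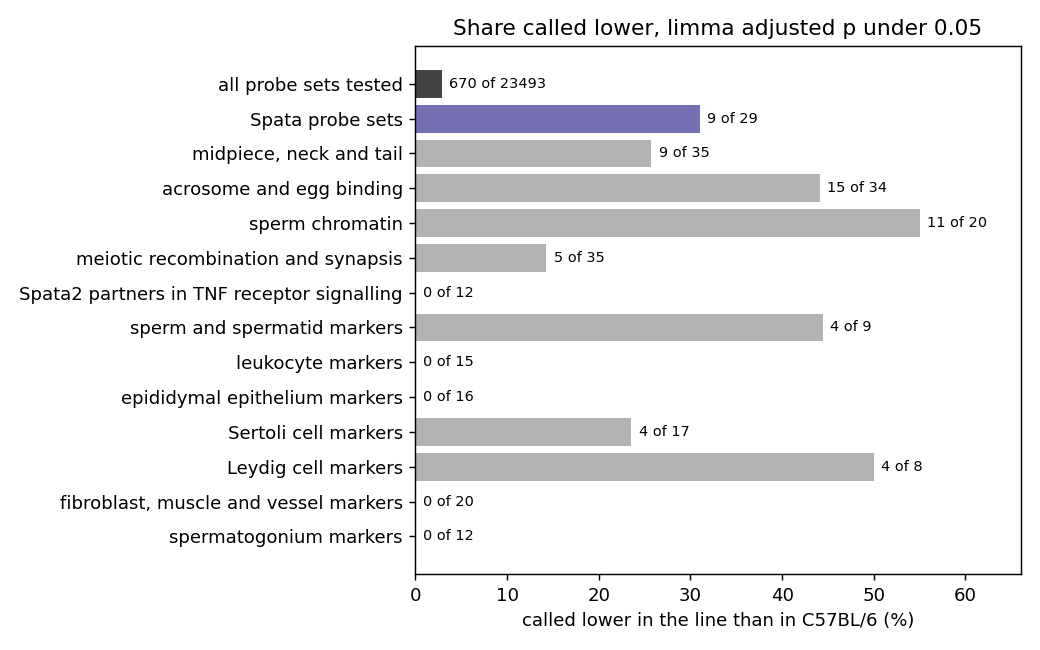
Share of probe sets or genes called lower in the line than in C57BL/6 (horizontal, percent; limma adjusted p under 0.05), with the count beside each bar, for all probe sets, the Spata probe sets and the gene lists (rows). The Spata bar, 9 of 29, and the bars of sperm parts stand above the bar of all probe sets, 670 of 23493. So do the bars of Sertoli markers, 4 of 17, and of Leydig markers, 4 of 8.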

How the data were processed

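Sperm RNA of 7 arrays was analysed. The deposited values are log2 intensities that the authors made with RMA, which corrects background, normalizes between arrays and summarises probe sets. Per the submitters' processing notes, R 3.1.0, oligo, RMA and limma were used. The sources used here do not give a genome build. RMA gave exactly equal values on several arrays: 30.9% of tested probe sets and 5 of 29 Spata probe sets took at most 4 distinct values across the line. With arrays there is no read depth, and precision is limited by how many there are.

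Of 33604 probe sets, 23493 had 1 symbol and were tested. Entrez identifiers matched all 29 Spata probe sets to RefSeq, with 0 symbols changed. All 7 arrays entered 1 linear model of group means in limma 3.58.1 under R 4.3.3 (4 residual and 1.65 prior degrees of freedom), with Benjamini-Hochberg adjustment over 23493 probe sets. The lone C57BL/6 array is assumed to vary like the others. Intervals are 95%.

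The members and gene lists were chosen with earlier results of these data known. All values were given for the 12 members with the smallest p, other called members, the 3 smallest p between TG3 and nonTG3, both Spata4 probe sets and 1 member per role. Some others, the motifs searched and the windows shown were chosen after values were seen. Per list, the 3 genes of smallest p were named, each gene through its brightest probe set. The steps were tested on simulated data. Alternatives covered normalization, the eBayes prior, array weights, dim probe sets, all probe sets, the groups fitted, the threshold, arrays left out and the replicate number as a block. Figures were drawn with matplotlib 3.10.9.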

Additional observations from a re-analysis of the deposited data

How the results depend on the processing

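The direction of all 9 called Spata probe sets held under every alternative run. Of the counts called lower, 9 in the line, 8 in TG3 and 8 in nonTG3 became 5 to 8, 5 to 6 and 5 to 7 when 1 array was left out. Without TG3 replicate 1 and nonTG3 replicate 3 together they became 0, 0 and 0, with fewer residual degrees of freedom. With only the groups compared, TG3 gave 0 and nonTG3 gave 0. After a repeated quantile normalization Spata48 and Spata1 were not called (adjusted p of 0.0573 and 0.0731) and Spata24 was (0.0211), which gave 8. The line's count reached 11 with array weights, which added Spata24 (0.0406) and Spata21 (0.0381), and also 11 at an adjusted p under 0.1. Family medians ran from -0.67 to -0.56 in the line.

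Near-zero differences from C57BL/6 changed sign. With 1 array left out, Spata32 ran from -0.173 to 0.067, Spata2l from -0.066 to 0.051, Spata18 from -0.025 to 0.08 and Spata31d1b from -0.07 to 0.225. After a repeated quantile normalization Spata32 was 0.069, Spata2l 0.102 and Spata18 -0.132. Without both arrays of lowest mitochondrial RNA Spata31d1b was -0.186 and Spata31d1d -0.019.

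Over all probe sets, the 710 calls of the line became 350 to 496, the 595 of TG3 272 to 333, and the 594 of nonTG3 228 to 397, when 1 array was left out. All became 0 without the arrays of lowest mitochondrial RNA. With only the groups compared TG3 gave 0 and nonTG3 54, and at an adjusted p under 0.1 they gave 938 and 904. The cause was not tested.

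The labels do not say whether TG3 and nonTG3 arrays of the same replicate number share a litter or day. Deviations of same-numbered arrays from their group means correlated at -0.45, 0.02 and -0.40 across probe sets, and no array correlated best with its own number. These values cannot decide the question, because deviations from a mean of 3 arrays are tied to each other. With the replicate number as a block, limma called 0 Spata probe sets between TG3 and nonTG3, and the median difference was -0.08.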

Other observations

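Spata2 and Spata25 were read only by probe sets that carry a second symbol and were not tested. The probe set of Spata2 and Rnf114 read 4.01 on C57BL/6, 4.82, 3.90 and 4.09 on TG3 and 3.98, 4.17 and 4.17 on nonTG3, so TG3 replicate 1 was the highest of the 7. The probe set of Zswim1 and Spata25 read 3.95 on C57BL/6 and 3.68 ± 0.08 (SD, n = 6) in the line, below C57BL/6 on all 6 arrays.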
